A study of Mus musculus with 16 samples.

Results

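Immediate early and stress response genes were followed here in the mouse ovary during testosterone treatment and after its withdrawal. The set holds 39 genes chosen by symbol: the Fos, Jun, Egr, Nr4a, Ier, Dusp and Gadd45 families and single genes such as Atf3, Zfp36, Btg2, Myc and Per1. All 39 were found among the 55426 gene rows of the deposited table, and 38 passed the filter on low counts. The gene that did not pass was Fosl1.

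RNA was sequenced from 16 ovaries, 1 per mouse, of female inbred C57BL/6NHsd mice in 4 groups of 4. On T mice were 16 weeks old and had been injected subcutaneously every week for 6 weeks with 0.9 mg testosterone enanthate, an ester that releases the hormone slowly. Post T mice had received the same 6 weeks of injections, then a washout until cycling resumed and 4 further cycles, and were 24 to 28 weeks old. Each of these groups had its own controls of matching age that had received only the sesame oil vehicle. Every mouse was in diestrus, the quiet phase of the estrous cycle. Ovaries were kept frozen in RNAlater, and poly(A) RNA was made into directional libraries.

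Immediate early genes are transcribed within minutes of a signal, by factors already present in the cell and without new protein synthesis. Their products are mostly short-lived: transcription factors such as Fos and Jun proteins, which pair as the AP-1 dimer, and inhibitors such as the Dusp phosphatases and Zfp36, which shut the same signal off. In the ovary several of them, among them Egr1, Nr4a1 and Fosl2, are known to be switched on in follicle cells by the luteinizing hormone surge.

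The libraries held 26598055 to 52659637 counts, so that 3 counts correspond to 0.0571 to 0.117 CPM. CPM are counts relative to library size, here scaled by TMM. Changes are log2 fold changes from edgeR, with a standard error (SE) derived from the statistic of its quasi-likelihood test. On T library 2 stood apart in cell type markers, with the lowest summed surface epithelium level (36.8 CPM, others 87.8 to 268) and the highest smooth muscle level (3140 CPM) of all 16. Its summed granulosa level was also the lowest of all 16 (2000 CPM). A gene is called changed at a Benjamini-Hochberg adjusted p under 0.05 over all 18833 tested genes. In these bulk samples, fewer cells of a type and less RNA per cell cannot be told apart.

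Compared per length in TPM, which is scaled for gene length and library size, the levels of the 39 genes spanned a wide range. Jund, an AP-1 subunit, was highest with a mean of 200 TPM over the 16 libraries (lowest 131, highest 260). It was followed by the small GTPase gene Rhob at 121 (87.1 to 154), the growth arrest gene Gadd45a at 92.8 (30.8 to 162) and the AP-1 subunit Fosl2 at 90.7 (41.8 to 152), and the ranges of these neighbours overlap. The lowest mean TPM were those of Nr4a3 (0.652), Fosl1 (0.376) and Egr4 (0.168). Fos itself, the best known member, was at 13.4 TPM (9.07 to 20.2).

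**Figure D1:**
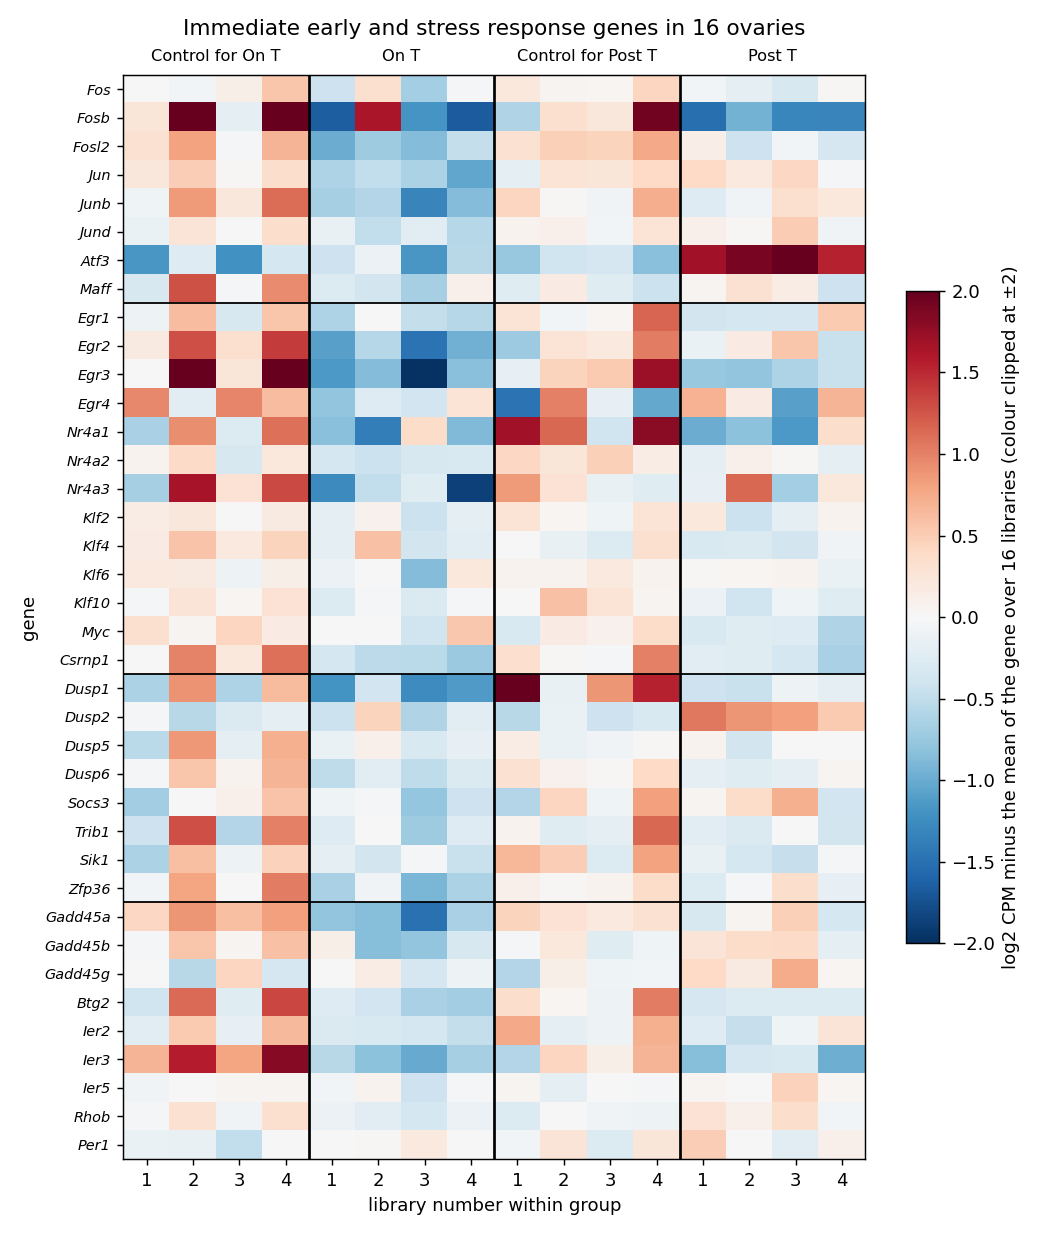
Each cell is 1 gene in 1 library, coloured by log2 CPM minus the mean of that gene over the 16 libraries and clipped at 2 in either direction; columns are libraries 1 to 4 of each group and black lines separate groups and gene roles. The On T block is mostly blue, control libraries 2 and 4 of the On T cohort and control library 4 of the Post T cohort are mostly red, and Atf3 and Dusp2 are red in all 4 Post T libraries.

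On testosterone, 14 of the 38 tested genes fell and 0 rose (36.8% lower). Over all tested genes, 5.03% were called lower and 4.24% higher. Without On T library 2, 12 of the 38 were called lower. The median log2 fold change of the 38 was -0.68, against -0.01 over all tested genes, and 34 of the 38 values were negative. The fallen genes were AP-1 subunits (Fosl2, Jun, Junb, Jund), zinc finger and nuclear receptor transcription factors (Egr2, Egr3, Nr4a3, Csrnp1), signal inhibitors (Dusp6, Zfp36) and growth arrest or survival genes (Gadd45a, Gadd45b, Btg2, Ier3).

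Among the AP-1 genes, Fosl2, which encodes the Fos-family subunit Fra-2, stood at 496, 698, 393 and 640 CPM in control libraries 1 to 4 and at 202, 244, 221 and 287 CPM in On T libraries 1 to 4. Every On T library lay below every control (log2 -1.22, SE 0.17, edgeR adjusted p = 0.00028). Jun, the AP-1 subunit c-Jun, was at 114, 137, 98.5 and 125 CPM in controls and at 63.6, 69.0, 62.7 and 47.4 CPM on testosterone. The groups were again apart, by a factor of 1.95 (log2 -0.97, SE 0.15, edgeR adjusted p = 0.000464). Junb, which can restrain c-Jun, was at 41.5, 79.9, 51.3 and 95.9 CPM in controls and at 27.8, 29.4, 17.6 and 24.2 CPM on testosterone. Its groups did not overlap, and the controls spread more than 2-fold among themselves (log2 -1.44, SE 0.25, edgeR adjusted p = 0.00142).

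Jund, the most abundant AP-1 subunit, changed less: it was at 194, 255, 214 and 272 CPM in controls and at 191, 152, 182 and 143 CPM on testosterone (log2 -0.48, SE 0.14, edgeR adjusted p = 0.0379). The lowest control and the highest On T library nearly touched. Its call was lost under 9 of 17 alternatives, among them leaving out control library 2 or 4 (edgeR adjusted p = 0.121 and 0.142) or On T library 2 or 4 (0.093 and 0.129). Fos did not pass (control mean 20.1 ± 4.13 CPM, On T mean 16.0 ± 4.93 CPM, SD, n = 4; log2 -0.32, edgeR adjusted p = 0.332), nor did Maff (log2 -0.90, edgeR adjusted p = 0.0673) or Fosb (log2 -2.16, SE 0.83, edgeR adjusted p = 0.124). Fosb was at 3.18, 21.7, 2.38 and 22.04 CPM in controls, so that libraries 2 and 4 stood far above 1 and 3, and at 0.819, 8.45, 1.16 and 0.809 CPM on testosterone.

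Fosl1, which encodes the AP-1 subunit Fra-1, showed the same split in its most extreme form. It was at 0.108, 2.31, 0.102 and 1.84 CPM in controls 1 to 4, at most at 0.0867 CPM in On T libraries and at most at 0.246 CPM in the older mice. It was not among the tested genes; with no filter it was called lower on testosterone (edgeR adjusted p = 0.00406).

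The Egr genes encode zinc finger factors induced by growth factors and, in follicle cells, by gonadotropins. Egr3 was at 3.85, 21.3, 4.55 and 17.9 CPM in controls and at 1.70, 2.06, 0.925 and 2.11 CPM on testosterone, a 6.98-fold lower fitted level (log2 -2.80, SE 0.53, edgeR adjusted p = 0.00267). Egr2 was at 6.24, 13.6, 6.85 and 14.5 CPM in controls and at 2.57, 3.70, 1.94 and 2.80 CPM on testosterone (log2 -1.90, SE 0.36, edgeR adjusted p = 0.00279). Both genes were below the lowest control in every On T library, and in both, controls 2 and 4 were about 2 times or more above controls 1 and 3. Egr1 averaged 116 ± 36.4 CPM among controls and 74.4 ± 15.7 CPM in On T libraries (SD, n = 4) and did not pass (log2 -0.64, edgeR adjusted p = 0.195).

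Of the orphan nuclear receptors, Nr4a3 was at 1.27, 6.58, 2.53 and 5.21 CPM in controls and at 0.819, 1.44, 1.74 and 0.520 CPM on testosterone (log2 -1.79, SE 0.51, edgeR adjusted p = 0.0363). Its groups overlapped, since control library 1 lay below On T libraries 2 and 3. Its call was lost under 9 of 17 alternatives, among them leaving out control library 2 or 4 (edgeR adjusted p = 0.136 and 0.111) or On T library 1, 2 or 4 (0.113, 0.0544 and 0.11), and limma on log2(TPM + 1) gave a log2 value of -0.53 (adjusted p = 0.151). Nr4a1 (log2 -0.99, edgeR adjusted p = 0.267) and Nr4a2 (log2 -0.46, edgeR adjusted p = 0.061) did not pass. Csrnp1, a nuclear factor first known as an Axin-induced gene, was at 7.97, 16.1, 9.28 and 17.3 CPM in controls and at 6.28, 5.54, 5.49 and 4.80 CPM on testosterone (log2 -1.19, SE 0.26, edgeR adjusted p = 0.0068). Klf2, Klf4, Klf6, Klf10 and Myc had log2 values between -0.35 and -0.18, and none passed.

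Among inhibitors, Dusp6, the phosphatase that inactivates ERK, was at 27.7, 41.2, 29.4 and 45.1 CPM in controls and at 19.7, 24.0, 19.7 and 22.9 CPM on testosterone (log2 -0.74, SE 0.15, edgeR adjusted p = 0.00398). Zfp36, which encodes the mRNA-destabilising protein tristetraprolin, was at 33.3, 59.9, 34.8 and 70.4 CPM in controls and at 22.01, 32.7, 18.3 and 22.2 CPM on testosterone (log2 -1.06, SE 0.23, edgeR adjusted p = 0.00702). In both genes the groups did not overlap. Dusp1, Dusp2, Dusp5, Socs3, Trib1 and Sik1 did not pass, with log2 values from -1.18 for Dusp1 to 0.10 for Dusp2.

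The growth arrest gene Gadd45a had the smallest p of the set. The gene (ENSMUSG00000036390) lies on the minus strand at chr6:67035096-67037457 of GRCm38. It stood at 81.2, 113, 92.5 and 108 CPM in controls and at 35.3, 33.8, 21.6 and 38.99 CPM on testosterone. The controls lay close together, far above all 4 On T libraries (log2 -1.60, SE 0.19, edgeR adjusted p = 4.67e-05). Gadd45b, a related stress sensor, was at 23.8, 35.6, 25.2 and 36.5 CPM in controls and at 26.4, 13.5, 14.1 and 19.6 CPM on testosterone, with On T library 1 above 2 controls (log2 -0.71, SE 0.21, edgeR adjusted p = 0.038). The Gadd45b call was lost under 9 of 17 alternatives, among them leaving out control library 2 or 4 (edgeR adjusted p = 0.117 and 0.126) or On T library 2, 3 or 4 (0.104, 0.0936 and 0.0694). The third gene of the family, Gadd45g, was at 24.2 ± 7.40 and 24.4 ± 3.34 CPM (SD, n = 4; log2 0.01, 95% interval -0.43 to 0.45).

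Ier3, an early gene that protects cells from death, was at 25.1, 46.8, 27.2 and 55.6 CPM in controls and at 10.7, 8.88, 7.78 and 9.85 CPM on testosterone. The lowest control was more than 2 times the highest On T library (log2 -2.05, SE 0.28, edgeR adjusted p = 0.000186). Btg2, an antiproliferative gene, was at 34.7, 100.0, 38.6 and 115 CPM in controls and at 38.4, 35.2, 29.1 and 28.3 CPM on testosterone (log2 -1.14, SE 0.33, edgeR adjusted p = 0.0368). For Btg2, control libraries 1 and 3 lay within or next to the On T range, and only controls 2 and 4 were apart. The Btg2 call was lost under 11 of 17 alternatives, among them leaving out control library 2 or 4 (edgeR adjusted p = 0.13 and 0.157) or any of On T libraries 1 to 4 (0.0652, 0.0658, 0.0807 and 0.103). Ier2, Ier5, Rhob and Per1 did not pass.

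**Figure D2:**
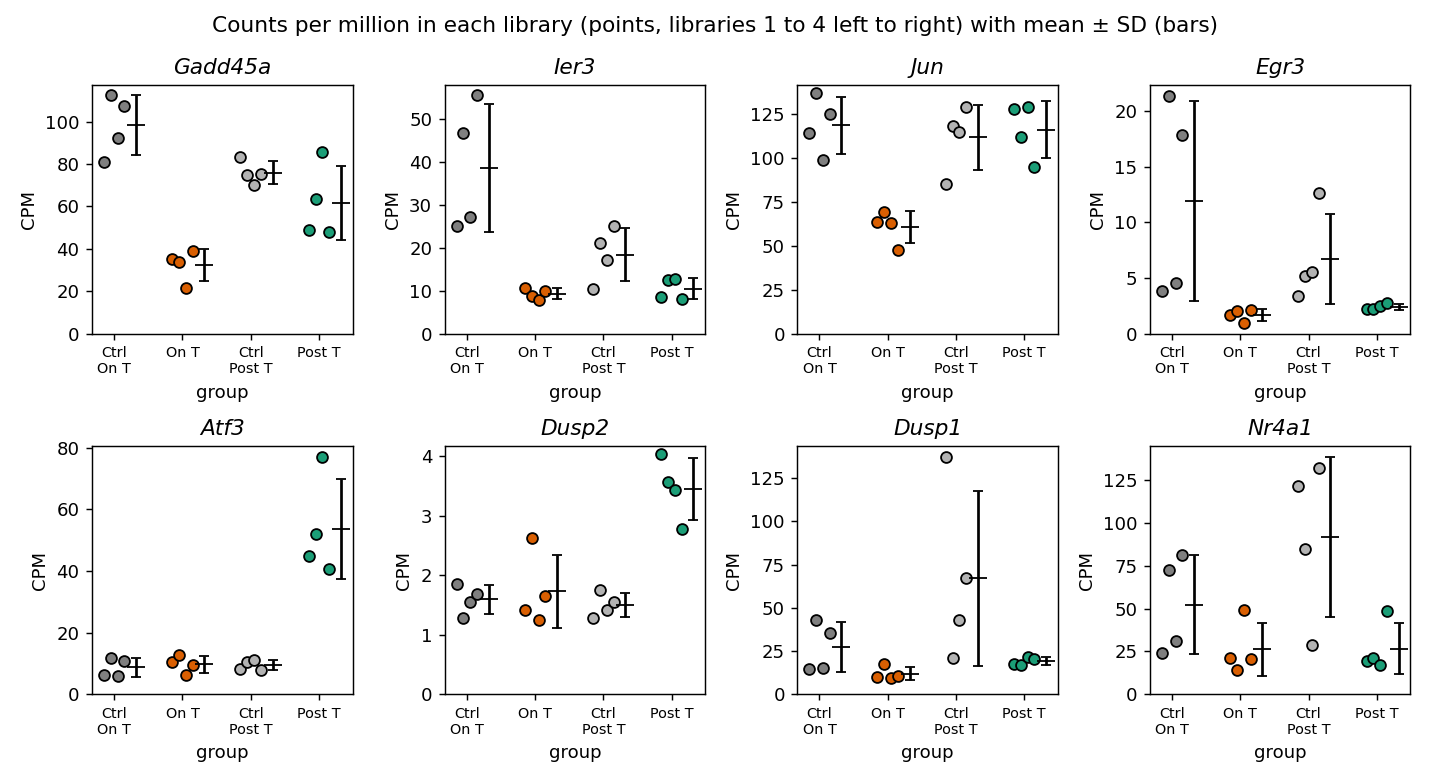
CPM of 8 genes in each library, with 1 point per library ordered 1 to 4 from left to right within a group and the mean ± SD (n = 4) as a bar. Gadd45a and Jun are low in all 4 On T libraries against evenly high controls, Egr3 is high in control libraries 2 and 4 of the On T cohort, and Atf3 is high only in the Post T libraries.

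Control libraries 2 and 4 of the On T cohort stood apart from controls 1 and 3 across the whole set. In library 2, 33 of 38 genes lay above the mean of their group and in library 4, 36 of 38, against 7 in library 1 and 5 in library 3. For all tested genes the share above the group mean was 48.5% to 52.1% in these 4 libraries. Libraries 2 and 4 were picked for omission because these same genes were high in them. Smaller falls for this set were therefore built into that choice, and only control libraries 1 and 3 remained. Without both libraries, an alternative chosen after seeing the data, 4 genes were called lower in place of 14. That is 10.5% of 38, against 2.03% of all tested genes, and the median log2 fold change of the 38 was -0.22. Those 4 were Gadd45a (log2 -1.42, edgeR adjusted p = 0.00229), Ier3 (log2 -1.49, edgeR adjusted p = 0.00541), Fosl2 (log2 -0.89, edgeR adjusted p = 0.00993) and Jun (log2 -0.80, edgeR adjusted p = 0.0181). Junb was at log2 -0.90 (edgeR adjusted p = 0.0508), Egr2 at -1.25 (0.0944) and Egr3 at -1.299 (0.112) in that fit. Fosb (log2 0.00), Btg2 (-0.16) and Dusp1 (-0.32) came close to 0. Trib1 (0.23), Sik1 (0.11), Dusp5 (0.25), Fosb and Gadd45g (-0.28) changed sign, and none of these 5 was called in either fit. In that fit 609 of all tested genes were called, against 947 lower and 799 higher with all libraries. Summed endothelial markers were at 405 and 402 CPM in libraries 2 and 4 and at 309 and 269 CPM in libraries 1 and 3, erythroid markers at 124 and 148 against 107 and 101, and adipocyte markers at 35.3 and 37.5 against 59.9 and 75.3. Surface epithelium (205 and 228 against 157 and 178) and oviduct sums (7.87 and 4.21 against 3.78 and 1.61) were also higher in libraries 2 and 4. Theca (305 and 537 against 663 and 631) and smooth muscle sums (1120 and 1170 against 1300 and 1290) were lower there. Macrophage (208 and 243 against 320 and 257) and oocyte sums (218 and 144 against 228 and 315) were lower too. By mean log2 CPM, adipocyte and macrophage markers did not separate these libraries, but luteal markers did. Taken relative to each gene's mean over all libraries, the luteal value was 1.39 and 1.19 in libraries 2 and 4. It was 0.948 and 0.886 in libraries 1 and 3. Summed luteal levels did not separate the libraries (12500 and 12600 CPM in 2 and 4 against 12600 and 11200 CPM in 1 and 3). The part of these shifts was not tested.

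**Figure D3:**
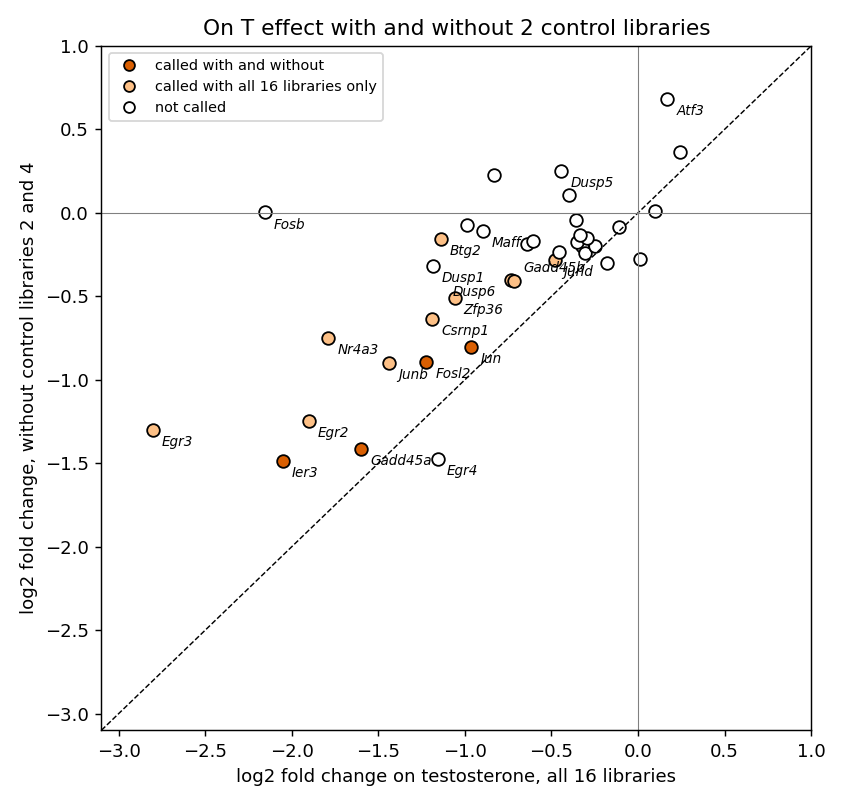
Each point is 1 of the 38 tested genes, with its On T log2 fold change from all 16 libraries on the horizontal axis and that without control libraries 2 and 4 on the vertical axis; the dashed line marks equal values. Gadd45a, Fosl2 and Jun lie near the line and keep their call with Ier3, while Fosb, Btg2 and Dusp1 lie close to 0 on the vertical axis.

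Cell type markers also moved on testosterone. Of 9 luteal markers 5 fell, and their summed level was 11200 to 12600 CPM in controls and 4900 to 8790 CPM on testosterone. Of 7 macrophage markers 3 rose (208 to 320 CPM against 423 to 785), of 5 smooth muscle markers 2 rose (1120 to 1300 against 1440 to 3140), and of 5 stroma markers 3 rose and 2 fell (1920 to 2290 against 1450 to 2390). Lyz2 made up most of the macrophage sum, at 167 ± 38.6 CPM in controls and 514 ± 123 CPM on testosterone (SD, n = 4). The macrophage markers Adgre1 (log2 0.03), Csf1r (-0.25), Itgam (-0.21) and Cd14 (0.43) were not called. Of 6 lymphocyte markers 1 rose. No granulosa, theca, oocyte, endothelial, surface epithelium, erythroid, oviduct or adipocyte marker was called on testosterone. The part of these shifts in the falls above was not tested. Markers of granulosa cells, which define a follicle, summed to 3370 to 5640 CPM in controls. In On T libraries 1 to 4 they summed to 5530, 2000, 7560 and 5340 CPM. Oviduct markers summed to at most 7.87 CPM in any library.

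Promoter windows were available for 31 of the 39 genes in RefSeq (GRCm38.p6), as the 250 bases before each transcript start. The windows were searched on both strands for the cyclic AMP response element TGACGTCA, its core TGACG, which the full element contains, the AP-1 site TGANTCA and the serum response CArG box. The core was found in 17 of the 31 genes (54.8%), against 19.8% of 27025 genes with a window. The full element was in 3 (Btg2, Dusp1 and Maff; 1.77% of all genes), the CArG box in 3 (Dusp5, Egr2 and Zfp36; 1.62% of all genes), and the AP-1 site in 1 (Csrnp1; 7.82% of all genes). Of the 4 genes that kept their On T call without control libraries 2 and 4, Gadd45a is shown, with 4 genes chosen after their values were seen to show the element types. Capitals mark matches on either strand.
Atf3: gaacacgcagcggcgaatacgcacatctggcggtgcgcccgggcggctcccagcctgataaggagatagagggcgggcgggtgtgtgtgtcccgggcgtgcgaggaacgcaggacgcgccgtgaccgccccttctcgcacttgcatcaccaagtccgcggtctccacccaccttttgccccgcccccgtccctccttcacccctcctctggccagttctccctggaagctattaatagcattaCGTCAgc
Btg2: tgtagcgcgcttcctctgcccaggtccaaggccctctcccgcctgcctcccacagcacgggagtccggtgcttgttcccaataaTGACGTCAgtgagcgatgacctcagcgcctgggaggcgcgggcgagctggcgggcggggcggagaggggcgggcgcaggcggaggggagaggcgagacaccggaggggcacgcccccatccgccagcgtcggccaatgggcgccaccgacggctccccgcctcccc
Dusp5: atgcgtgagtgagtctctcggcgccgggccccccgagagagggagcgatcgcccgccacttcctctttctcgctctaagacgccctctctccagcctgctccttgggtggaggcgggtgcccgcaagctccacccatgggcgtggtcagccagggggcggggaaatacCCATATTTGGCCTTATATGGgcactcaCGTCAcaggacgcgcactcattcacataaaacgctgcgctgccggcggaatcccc
Zfp36: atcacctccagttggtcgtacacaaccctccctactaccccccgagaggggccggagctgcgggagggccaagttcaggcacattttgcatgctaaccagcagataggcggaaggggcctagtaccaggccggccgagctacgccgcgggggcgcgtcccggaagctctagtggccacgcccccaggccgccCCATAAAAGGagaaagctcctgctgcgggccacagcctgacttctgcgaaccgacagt
Gadd45a: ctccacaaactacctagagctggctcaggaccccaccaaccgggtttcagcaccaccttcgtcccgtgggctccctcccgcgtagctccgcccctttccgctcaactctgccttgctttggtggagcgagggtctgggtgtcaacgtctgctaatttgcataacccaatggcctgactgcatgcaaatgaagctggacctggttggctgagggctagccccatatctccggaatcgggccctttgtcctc

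These windows lie at chr1:191183334-191183583 (minus strand, Atf3), chr1:134079156-134079405 (minus, Btg2), chr19:53528895-53529144 (plus, Dusp5), chr7:28379229-28379478 (minus, Zfp36) and chr6:67037408-67037657 (minus, Gadd45a). In Atf3 the core ends 3 bases before the start on the opposite strand, and in Btg2 the full element spans bases -166 to -159. Dusp5 holds 2 adjacent CArG boxes from -82 to -63, and Zfp36 holds 1 from -58 to -49. The window of Gadd45a holds none of the 4 elements.

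After washout, 2 of the 38 tested genes were higher than in their controls and 4 were lower. Over all tested genes 7.49% were called higher and 4.81% lower, so the 5.26% higher among the set is near the background and the 10.5% lower is about 2 times it. Atf3 and Dusp2 rose, and Dusp1, Fosl2, Klf10 and Nr4a1 fell. The median log2 fold change of the 38 was -0.25. The count of lower genes was 2 without control library 4 or Post T library 4 and 1 without Post T library 2.

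Atf3, a stress-induced member of the CREB and ATF family that is known to repress inflammatory genes, had the smallest p of the set after washout. The gene (ENSMUSG00000026628) lies at chr1:191170296-191218039 of GRCm38. It stood at 8.22, 10.6, 11.02 and 7.82 CPM in controls and at 45.0, 52.2, 77.1 and 40.7 CPM in Post T libraries 1 to 4, 5.7-fold higher in the fit (log2 2.51, SE 0.27, edgeR adjusted p = 5.36e-06). The lowest Post T library was more than 3 times the highest control. In the On T group and its controls it lay between 5.98 and 12.8 CPM, and it did not pass there (log2 0.17, 95% interval -0.40 to 0.74).

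Dusp2, a nuclear phosphatase of ERK and p38 that is abundant in immune cells, was at 1.29, 1.75, 1.42 and 1.55 CPM in controls and at 4.03, 3.57, 3.43 and 2.78 CPM after washout (log2 1.20, SE 0.22, edgeR adjusted p = 0.0012). All 4 Post T libraries lay above all 4 controls. Beside these rises, 5 of 7 macrophage markers rose after washout, and the summed level of the 7 was 328 to 821 CPM in controls and 2950 to 4570 CPM in Post T libraries. Lyz2, the macrophage lysozyme, was at 394 ± 190 CPM in controls and 3220 ± 630 CPM post testosterone (SD, n = 4). Of 6 lymphocyte markers 4 rose (summed 4.79 to 10.1 CPM against 23.2 to 31.9). No macrophage marker had a group mean of 0. Of the remaining markers 1 of 3 theca, 1 of 5 stroma and 1 of 3 tested adipocyte genes rose after washout, the last being Fabp4. Fabp4 averaged 15.9 ± 6.43 CPM in controls and 92.8 ± 23.8 CPM in Post T libraries (SD, n = 4). It made up most of the summed adipocyte level after washout (24 to 43 CPM in controls against 123 to 132). The adipocyte genes Plin1 (log2 1.16, edgeR adjusted p = 0.138) and Adipoq (log2 -0.09, edgeR adjusted p = 0.954) did not pass. The part of any of these cell types in the rise of Atf3 and Dusp2 was not tested.

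Fosl2 was at 493, 561, 549 and 679 CPM in Post T controls and at 438, 302, 386 and 316 CPM after washout (log2 -0.66, SE 0.17, edgeR adjusted p = 0.0164). It was the only gene of the set called lower in both treatment comparisons, which share no library. Its groups did not overlap, but the call ended without control library 4 (edgeR adjusted p = 0.0635), Post T library 2 (0.0659) or Post T library 4 (0.0633). Klf10, a TGF-beta inducible repressor, was at 34.5, 51.7, 41.4 and 35.5 CPM in controls and at 31.5, 26.0, 32.3 and 29.1 CPM after washout (log2 -0.46, SE 0.13, edgeR adjusted p = 0.0226). Every Post T library was below every control, and the call was lost on omitting control library 2 (0.0972), control library 3 (0.0606), Post T library 2 (0.0935) or Post T library 4 (0.0683).

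Dusp1, a phosphatase of p38 and JNK that is induced by stress and glucocorticoids, was at 137, 20.9, 42.7 and 66.9 CPM in Post T controls and at 17.3, 17.0, 21.6 and 20.3 CPM after washout (log2 -1.81, SE 0.45, edgeR adjusted p = 0.0132). The treated libraries were even and the controls were not, with control library 1 more than 6 times library 2. Without control library 1 the log2 value was -1.17 and the call ended (edgeR adjusted p = 0.0687). Nr4a1, an orphan nuclear receptor induced by gonadotropins, was at 122, 84.7, 28.8 and 132 CPM in controls and at 19.2, 21.4, 17.1 and 48.7 CPM after washout (log2 -1.78, SE 0.51, edgeR adjusted p = 0.0291). Control library 3 lay among the Post T libraries. Its call was lost on omitting either of controls 1 and 4 (edgeR adjusted p = 0.0766 and 0.0926) or any of Post T libraries 1, 2 and 3 (0.0907, 0.0851 and 0.0939).

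Of the genes called lower on testosterone, Fosl2 alone was also called after washout. Gadd45a was at 83.2, 74.6, 70.2 and 75.4 CPM in Post T controls and at 49.1, 63.6, 85.5 and 47.8 CPM after washout (log2 -0.30, SE 0.18, edgeR adjusted p = 0.369), with Post T library 3 above all controls. Jun was at 85.1, 118, 115 and 129 CPM in controls and at 128, 112, 129 and 94.9 CPM after washout (log2 0.06, 95% interval -0.26 to 0.37). Ier3 was at 10.5, 21.1, 17.1 and 25.1 CPM in controls and at 8.63, 12.5, 12.7 and 7.99 CPM after washout (log2 -0.83, SE 0.27, edgeR adjusted p = 0.0606). Junb and Egr2 had log2 values of -0.24 and -0.25, and Egr3 of -1.47 (edgeR adjusted p = 0.0718).

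None of the other genes called on testosterone was called after washout. Nr4a3 was at 1.72 to 3.74 CPM in Post T controls and 1.26 to 4.64 CPM after washout (log2 0.05, edgeR adjusted p = 0.973). Jund was at 204 to 258 CPM in Post T controls and 202 to 301 CPM after washout, Zfp36 at 35.2 to 44.4 and 28.6 to 43.9, Dusp6 at 28.5 to 37.0 and 23.6 to 29.2, and Gadd45b at 20.5 to 28.3 and 21.4 to 31.6. Btg2 was at 58.1, 46.9, 42.7 and 92.4 CPM in controls and within 36.1 to 37.8 CPM in all 4 Post T libraries (log2 -0.69, edgeR adjusted p = 0.216). Csrnp1 was at 7.88 to 16.1 CPM in controls and 5.08 to 6.84 CPM after washout (log2 -0.77, edgeR adjusted p = 0.0618). In all, 9 of the 39 genes lay lower without overlap after washout and 2 higher, where 6.92% and 9.62% of all tested genes did. On testosterone 14 of 39 lay lower without overlap and 0 higher, where 7.92% and 7.22% of all tested genes did. The 14 include Fosl1, which was not tested and was parted only by 4 counts in the lowest control against 3 in the highest On T library.

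**Figure D4:**
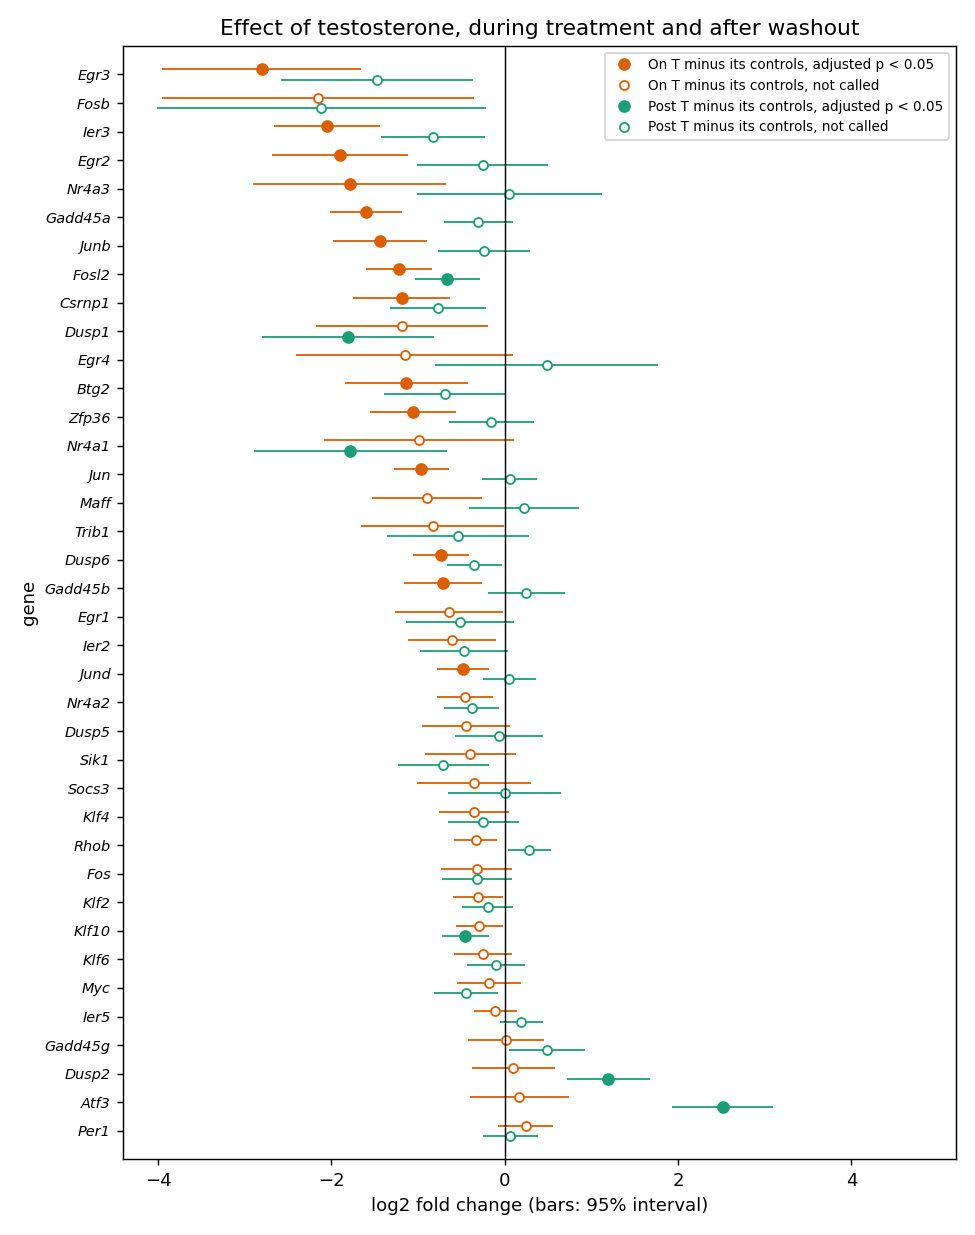
Log2 fold change and 95% interval of the 38 tested genes on testosterone (orange) and after washout (green), each against its own controls, with filled points for an edgeR adjusted p under 0.05. Most orange points lie left of 0 and 14 are filled. Of the green points 26 lie left of 0, where Dusp1, Nr4a1, Fosl2 and Klf10 are filled. Atf3 at 2.51 and Dusp2 at 1.20 are the filled green points on the right.

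The difference between both effects was tested directly, as the Post T effect minus the On T effect. It was positive and called for 4 of the 38 genes and negative for 0, where 2.93% of all tested genes were called positive and 0.324% negative. Atf3 differed by 2.34 (SE 0.37, edgeR adjusted p = 0.00158), and its call held under all 24 alternatives. For Gadd45a the difference was 1.297 (SE 0.26, edgeR adjusted p = 0.00978). For Jun it was 1.02 (SE 0.21, edgeR adjusted p = 0.0094). Both were lower on testosterone and not called after washout. Without control libraries 2 and 4 of the On T cohort these differences were 1.13 (edgeR adjusted p = 0.057) and 0.88 (edgeR adjusted p = 0.0531), so that Atf3 alone passed.

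Rhob, an early GTPase gene, differed by 0.62 (SE 0.16, edgeR adjusted p = 0.0431) without passing in either treatment comparison. It was at 186, 238, 183 and 238 CPM in On T controls, 177, 165, 150 and 177 CPM on testosterone, 159, 193, 183 and 178 CPM in Post T controls and 235, 205, 245 and 184 CPM after washout. The On T libraries lay below their controls and the Post T libraries mostly above theirs, and the call was lost in 16 of 24 alternatives. Junb (1.20, edgeR adjusted p = 0.0758), Egr2 (1.65, 0.0916), Gadd45b (0.96, 0.0916) and Dusp2 (1.10, 0.0701) came next and did not pass. For Fosl2 the difference was 0.56 (SE 0.24, edgeR adjusted p = 0.294), and for Fos it was 0.00 (95% interval -0.57 to 0.58).

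Between both control groups, which differ in age and cohort, edgeR called 0 of the 38 genes and 0 of all tested genes. Of the 38, 4 had an unadjusted p under 0.05, and the share of all tested genes at that threshold is not given here. Ier3 was 38.7 ± 14.9 CPM in the younger and 18.4 ± 6.24 CPM in the older controls (SD, n = 4; log2 -1.06, SE 0.27, unadjusted p = 0.00115, edgeR adjusted p = 0.201), and these groups just failed to overlap. It was the 1 gene of the set lower without overlap in the older controls and 0 were higher, where 2.61% and 3.28% of all tested genes were. DESeq2 called Ier3 lower and 173 genes over the whole table. Dusp1 ran the other way, at 27.2 ± 14.4 and 66.9 ± 50.5 CPM (log2 1.301, edgeR adjusted p = 0.31). Age and cohort cannot be told apart here.

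Spread within groups was wide for many of these genes. The median SD of log2 CPM within groups was 0.366 for the 38 genes and 0.233 for all tested genes, or 0.180 for genes of similar level. Fosb spread most (1.29, at the 99.4th percentile of all genes), followed by Nr4a1 (0.836), Egr3 (0.802) and Nr4a3 (0.794), and Ier5 least (0.163). The median Pearson correlation of deviations from the group means was 0.34, over 703 gene pairs and 16 libraries that share depth and tissue composition. It is given as a description, without a value for genes outside the set. The mean deviation of the 38 genes was widest in On T control libraries 1 to 4 (-0.397, 0.331, -0.316 and 0.382). Btg2 (0.58), Zfp36 (0.56) and Junb (0.56) had the highest median correlation with the other genes, and Egr4 (-0.21) and Gadd45g (-0.15) the lowest.

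Related pathways were described with lists that hold none of the 39 genes. Their counts stand against 5.03% of all tested genes lower and 4.24% higher on testosterone, 2.03% lower without control libraries 2 and 4, and 4.81% lower and 7.49% higher after washout. Of 34 other signal-induced genes, 7 fell and 0 rose on testosterone (median log2 -0.29), among them the circadian repressor Bhlhe40 (68.9 ± 19.1 to 32.6 ± 3.74 CPM, log2 -1.08, edgeR adjusted p = 0.000611) and Nfil3 (log2 -0.88, edgeR adjusted p = 0.000714). Both were also called without control libraries 2 and 4, where 3 of the 34 fell. After washout 0 of the 34 fell and 6 rose (median log2 -0.17). The smallest p were those of Tnfaip3, an inhibitor of NF-kappaB (9.18 ± 0.659 to 21.5 ± 1.95 CPM, log2 1.23, edgeR adjusted p = 7.85e-06), Plaur, the urokinase receptor (log2 1.92, edgeR adjusted p = 4.87e-05), and Nfkbia (log2 0.58, edgeR adjusted p = 0.00184). The macrophage markers given above rose in the same libraries.

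Of 23 kinases, receptors and transcription factors upstream of early genes, 1 rose in each treatment comparison and 0 fell, with median log2 values of 0.01 and 0.03, and in both cases the gene was Rps6ka1, which encodes an ERK-activated kinase (log2 0.27 on testosterone, edgeR adjusted p = 0.0466, and 0.31 after washout, edgeR adjusted p = 0.0172). The luteinizing hormone receptor gene Lhcgr averaged 285 ± 72.8 CPM in On T controls and 103 ± 60.2 CPM on testosterone (SD, n = 4). Its groups did not overlap, but it did not pass (log2 -1.46, edgeR adjusted p = 0.0858), and it was at log2 -0.02 after washout. On testosterone 0 of the 23 were called without control libraries 2 and 4. Of 12 AP-1 partners, Maf (log2 -1.69, edgeR adjusted p = 0.000293) and Batf3 (log2 -1.296, edgeR adjusted p = 0.00549) fell on testosterone (median 0.08), and 1 of the 12 fell without those 2 controls. After washout 2 of the 12 rose (median 0.06), among them the lymphocyte factor Batf (log2 1.15, edgeR adjusted p = 0.00199).

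Of 16 heat shock genes, Dnajb4 (log2 -0.41, edgeR adjusted p = 0.00951) and Hspd1 (log2 -0.54, edgeR adjusted p = 0.0406) fell on testosterone (median -0.25), and 0 of the 16 were called without control libraries 2 and 4. After washout 0 were called (median -0.11). Of 18 genes of the unfolded protein and integrated stress responses, 2 fell on testosterone (median -0.23), namely the chaperone Pdia4 (log2 -1.23, edgeR adjusted p = 0.000673) and Atf5 (log2 -0.45, edgeR adjusted p = 0.0237), and 1 fell without those 2 controls. After washout Pdia4 (log2 -0.83, edgeR adjusted p = 0.00738) and Asns (log2 -0.56, edgeR adjusted p = 0.038) fell and Sesn2 (log2 0.38, edgeR adjusted p = 0.018) rose (median 0.05).

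Of 12 p53 targets, 4 fell and 1 rose on testosterone (median -0.15), and 1 fell after washout (median -0.02). Without control libraries 2 and 4, 1 fell and 0 rose on testosterone. Cdkn1a, the cell cycle inhibitor p21, which like Gadd45a is a p53 target, fell in both (log2 -3.14, edgeR adjusted p = 3.86e-05 on testosterone and log2 -1.29, edgeR adjusted p = 0.0187 after washout). Sesn1 rose (log2 0.42, edgeR adjusted p = 0.0113) and Zmat3 fell (log2 -0.41, edgeR adjusted p = 0.0163) on testosterone.

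Dusp1 and Per1 are also known to respond to glucocorticoids. Of 8 other glucocorticoid targets, Sgk1 (log2 -2.83, edgeR adjusted p = 6.23e-06) and Fkbp5 (log2 -1.43, edgeR adjusted p = 0.000561) fell on testosterone (median 0.20), and 2 of the 8 fell without control libraries 2 and 4. After washout Fkbp5 (log2 -1.99, edgeR adjusted p = 9.37e-06) and Sgk1 (log2 -2.09, edgeR adjusted p = 3.55e-05) fell (median -0.02). Luteal markers fell in the same comparison, 5 of 9, with a summed level of 9060 to 19800 CPM in Post T controls and 5890 to 10300 CPM after washout; the part of luteal tissue was not tested.

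Per1, the early gene of the clock, was at 42.0 ± 5.87 CPM in On T controls and 49.6 ± 3.37 CPM on testosterone, and at 49.6 ± 8.48 and 51.8 ± 10.9 CPM in the older groups (SD, n = 4), and passed in neither comparison. Of 15 other clock genes, 3 rose on testosterone (median 0.39), among them Hlf (log2 1.24, edgeR adjusted p = 0.00227) and Bhlhe41 (log2 0.74, edgeR adjusted p = 0.0406), and 2 rose without control libraries 2 and 4. After washout Bhlhe41 (log2 1.52, edgeR adjusted p = 9.3e-05), Npas2 (log2 1.02, edgeR adjusted p = 0.0107) and Per2 (log2 0.79, edgeR adjusted p = 0.0408) rose (median 0.05). The hour of collection is not given in the sources used here.

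**Figure D5:**
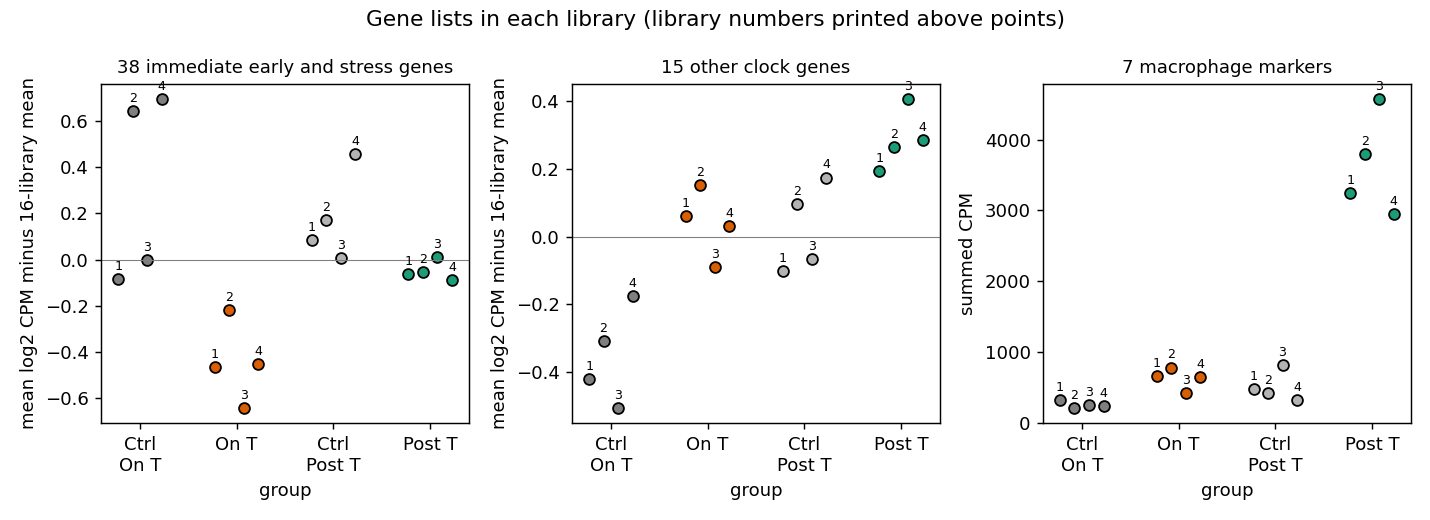
Gene lists by library, with library numbers above the points: mean log2 CPM minus the 16-library mean for the 38 tested genes (left) and for 15 other clock genes (middle), and summed CPM of 7 macrophage markers (right). Control libraries 2 and 4 of the On T cohort stand highest on the left, and the 4 Post T libraries stand between 2950 and 4570 CPM on the right, above the other 12.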

How the data were processed

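Ovarian poly(A) RNA of 16 mice was sequenced as paired ends, per the labels' protocols. RSEM 1.3.3 and STAR 2.7.8a are named in the submitters' processing notes, as are FastQC 0.11.8, cutadapt 2.3 and the build GRCm38. Expected counts per gene were deposited by the authors and not normalized, and all were whole numbers when checked. TPM values, scaled for gene length and library size, were deposited by the authors and used for levels between genes. The use of strand in counting is not given in the sources used here, so reads of overlapping antisense genes could count towards a gene.

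Genes were kept by filterByExpr (minimum count 10), which left 18833 of 55426. All 16 libraries entered 1 fit in edgeR 4.0.16 (R 4.3.3) with TMM factors and 1 mean per group. Quasi-likelihood tests were adjusted by Benjamini-Hochberg over all tested genes at 0.05. Intervals are 95%. The labels call the libraries biological replicates, each from 1 mouse. CPM and its mean ± SD (n = 4) were computed from the counts, and log2 CPM used a prior count of 2. The floor of 3 counts covers counting error only. Positions were taken from GENCODE (GRCm38), where 55154 identifiers matched.

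The genes and lists were chosen with earlier results of these data known. The naming rule gave every library's value for genes called in a treatment comparison or in their difference, and up to 3 called genes per related list and comparison. Some genes this rule names are not reported here. Alternatives were DESeq2 1.42.0, RLE size factors, at least 1 CPM in 4 libraries or no filter, limma 3.58.1 on log2(TPM + 1) and log2(TPM + 0.1), only the 8 libraries compared, a replicate block and leaving out each library. On simulated data for the On T comparison, 61% of 200 genes changed 2-fold were recovered among 18833, with 8 false calls. The changed genes were drawn at random from all tested genes, with independent noise. The genes of the set spread more and varied together, so this share does not describe them.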

Additional observations from a re-analysis of the deposited data

Results flagged for a closer look

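In 156 groups of 4 libraries (39 genes in 4 groups), 11 had 1 library far from the other 3 by Dixon's 95% criterion, where chance flags about 1 in 20. On T library 2 was high for Fosb (8.45 CPM, others 0.809 to 1.16), Dusp1 (17.7, others 9.6 to 10.5) and Klf4 (23.1, others 11.8 to 13.4), and On T library 3 was high for Per1 (54.6 CPM). Post T library 4 was high for Egr1 (141 CPM) and Nr4a1 (48.7 CPM) and low for Myc (54 CPM). Post T library 3 was high for Ier5 (38.1 CPM) and Post T library 1 low for Btg2 (36.1 CPM, others 37.6 to 37.7). Among Post T controls, library 3 was high for Klf6 (119 CPM) and library 4 for Trib1 (36.1 CPM, others 13.8 to 17.1).

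The treatment effect differed between washout and treatment, by edgeR's test of the difference itself, for Atf3 (log2 difference 2.34), Gadd45a (1.3), Jun (1.02) and Rhob (0.619). Atf3 was higher in 4 of 4 Post T libraries than in any control, and Gadd45a and Jun were lower in 4 of 4 On T libraries than in any control.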

How the results depend on the processing

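The On T count of lower genes was 14, and it was 9 with limma on log2(TPM + 1), 10 to 16 on leaving out 1 library, and 4 without control libraries 2 and 4 together, an alternative added after seeing the data. In that last setting Fosb (log2 0.00302), Dusp5 (log2 0.2527), Trib1 (log2 0.2254), Sik1 (log2 0.1088) and Gadd45g (log2 -0.277) changed sign, 1 gene was called in the difference of effects, and 609 genes were called on testosterone and 16 between controls over the whole table. Called genes on testosterone over the whole table numbered 1130 with limma on log2(TPM + 1) and 1081 to 1764 on leaving out 1 library (1081 without control library 4 and 1094 without control library 2). The Post T count of lower genes, 4, was 8 with DESeq2 and 1 to 5 on leaving out 1 library. With DESeq2 the difference of effects gave 9 of the set and 999 of all genes, and the controls gave 1 and 173. With no filter 20 genes differed between controls, and 0 to 9 did on leaving out 1 library. The calls of Gadd45a, Ier3, Fosl2 and Jun on testosterone held under all 17 alternatives run, as did those of Atf3 and Dusp2 after washout under all 16. Those of Nr4a3, Jund and Gadd45b on testosterone were lost under 9 of 17 alternatives and that of Btg2 under 11, the replicate block among them for Jund (edgeR adjusted p = 0.0641), Gadd45b (0.053) and Btg2 (0.053).

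Replicate numbers are shared between groups. The mean correlation of same-numbered deviations was 0.0578, 0.138, -0.0409 and 0.0662 for numbers 1 to 4. For libraries of different number and group it was -0.0183. With 1 library per group and number, these small values cannot exclude a weak pairing. With a replicate block, 11 genes of the set were lower on testosterone, 5 lower and 2 higher after washout, and 3 in the difference. Genes near or below 1 CPM, such as Egr4 and Fosl1, are limited by depth.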
